A study of Mus musculus with 20 samples.

Results

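The 10 genes described here encode smooth muscle contractile proteins that also mark myofibroblasts, together with the transcription factor that drives many of them: Acta2, Actg2, Myl9, Cnn1, Cnn2, Tpm1, Tpm2, Tagln, Tagln2 and Srf. They were chosen by function, with earlier results of these data known, and each was represented by every probe set in the deposited value table that the platform annotation assigns to that gene alone. Of the 10 genes, 8 had such a probe set, out of 17097 genes on the array. These 8 genes carried 15 probe sets, out of 28898 with a single gene symbol and 45141 in the table. The only probe set annotated to Tagln also carries the symbol Pcsk7, and Tagln2 is not analysed here, so neither has a value below.

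The cells were SV40-immortalized mouse embryonic fibroblasts in which both catalytic subunit genes of AMP-activated protein kinase (AMPK), Prkaa1 and Prkaa2, were deleted (Ampkα1/α2 double knockout). AICAR, a nucleoside that cells phosphorylate to an AMP mimic and that is widely used to activate AMPK, was added at 1 mM. Biotinylated cRNA from total RNA was measured on 20 Affymetrix mouse arrays: 3 untreated controls (0 h), 3 arrays per time after 1, 2, 4, 12 and 24 h in AICAR, and 2 arrays after 8 h. Every group, the controls included, carried the double deletion and the SV40 immortalization. All comparisons with 0 h share the same 3 controls, and hours in AICAR cannot be told apart from hours in culture. Nothing in the labels ties replicates to separate cultures, and p-values therefore reflect only how far these samples spread, which may be technical.

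Actin, myosin and tropomyosin form the contractile apparatus of smooth muscle, and fibroblasts switch the same genes on when they assemble stress fibres and become myofibroblasts. Serum response factor, the product of Srf, binds the CArG box in the promoters of many contractile genes. It acts there with myocardin or with the myocardin-related transcription factors, which monomeric actin holds in the cytoplasm.

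The median log2 signal of an array ranged from 5.16 to 5.32. Over 23 probe sets for sequences foreign to the mouse the median was 3.71 and the 95th percentile 5.08. The latter was taken here as the level of nonspecific signal. Prkaa1 read between 7.92 and 8.36 over the 20 arrays. Prkaa2 read 6.98 on replicate 1 at 12 h and between 5.42 and 6.0 on the other arrays. No array of cells with intact AMPK was analysed here, and the probes' place relative to the deletions was not examined, so these values do not check the genotype. Signal at the 3′ end of actin exceeded that at its 5′ end, a measure that moves with RNA integrity, by 0.38 to 0.46 in the controls, 0.44 to 0.69 at 4 h, 0.43 to 0.65 at 8 h and 0.50 to 0.56 at 24 h, and its part in the results was not tested. Vim, an intermediate filament gene of fibroblasts, had a control mean of 13.20, and S100a4 had 12.47, whereas the collagen gene Col1a2 read 4.23, under the nonspecific level. Of 4 genes of differentiated smooth muscle with a probe set, only Synpo2 exceeded the nonspecific level in any group. Myh11, the smooth muscle myosin heavy chain, read 4.46 in the controls and Myocd, encoding myocardin, read 4.60.

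Acta2, Myl9 and Tpm1 were lower than at 0 h from 8 h onward in AICAR. Acta2 had lost 1.22 on the log2 scale by 24 h, a 2.33-fold lower signal, Myl9 had lost 1.01 by 12 h, and Tpm1 had lost 0.62 by 24 h. Actg2, Cnn1 and Cnn2 were lower by between 0.28 and 0.48 at 24 h, all past the test. On its brightest probe set Tpm2 passed against 0 h at 12 h only, with a fall of 0.26. The brighter probe set of Srf had its lowest mean at 4 h and its highest at 24 h, a course that its second probe set did not share. A lower signal in these bulk cultures does not separate fewer cells expressing a gene from less RNA per cell.

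**Figure D1:**
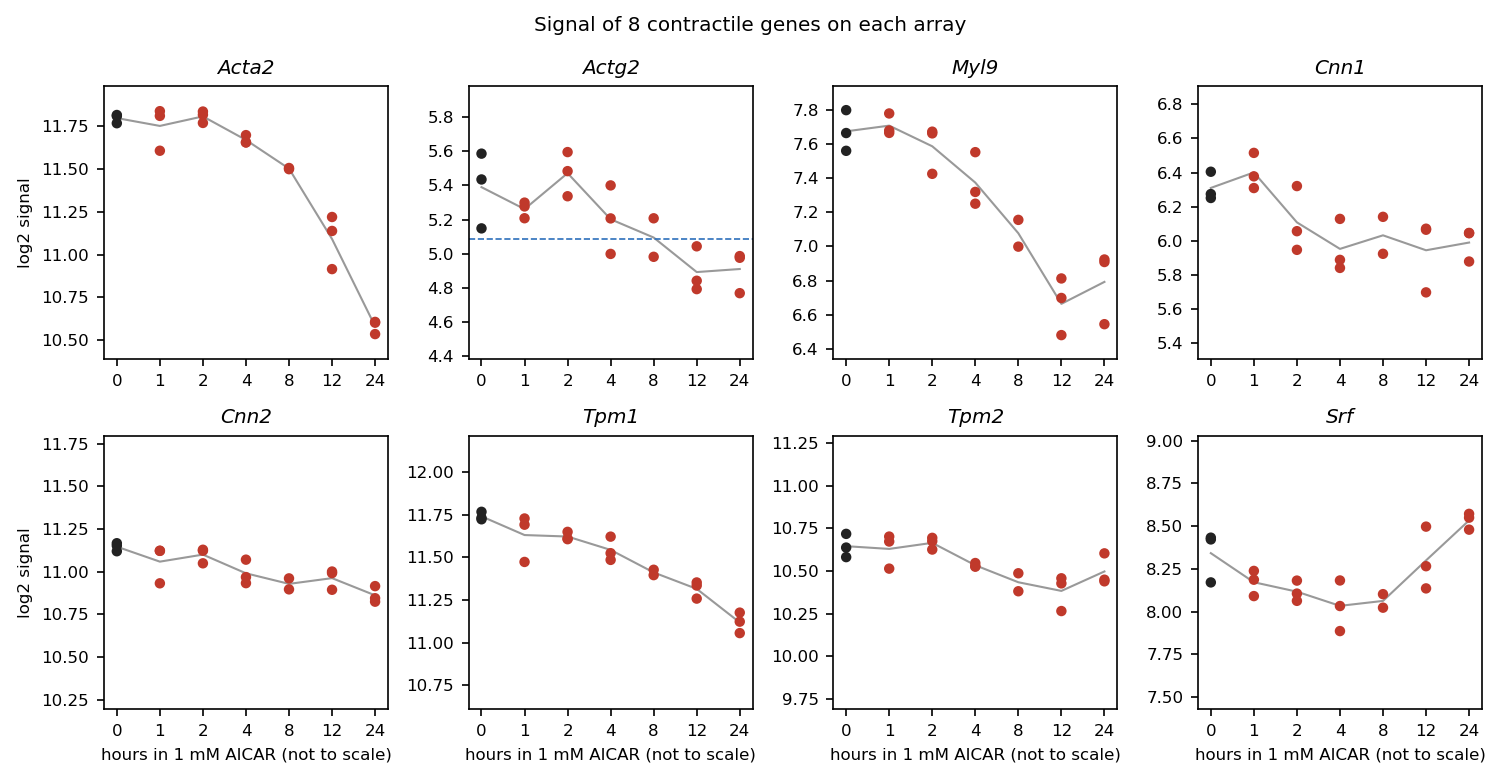
Log2 signal of 8 contractile genes (y axis, a separate scale in each panel) on each of 20 arrays, by hours in 1 mM AICAR (x axis, 0 h black, AICAR red, not to scale); lines join group means and the dashed line in the Actg2 panel marks the nonspecific level of 5.08. Acta2 runs from 11.80 at 0 h to 10.58 at 24 h, whereas the brighter Srf probe set dips to 8.03 at 4 h and reaches 8.53 at 24 h.

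Changes are differences between group means of log2 signal from a limma fit across 12944 genes, and a gene passed at a Benjamini-Hochberg adjusted p under 0.05. At 1 h none of the 8 genes passed in limma, where 0.479% of all tested genes did, and none had an unadjusted p under 0.05. At 2 h none passed against 1.47% of all genes, and 1 of the 8, Srf, had an unadjusted p under 0.05, at 0.0301. At 4 h 1 of 8, Srf, was called lower, where 6.9% of all genes were. At 8 h 3 of 8 were lower against a background of 2.84%, at 12 h 6 of 8 against 8.88%, and at 24 h 6 of 8 against 14.6%. None of the 8 passed as higher than 0 h at any of the 6 times, and none had an unadjusted p under 0.05 in that direction. In order of time, the median change of the 8 genes was -0.07, -0.07, -0.19, -0.29, -0.39 and -0.40. Over all tested genes the median stayed between -0.01 and 0.01. All 8 genes passed the moderated F test over the 6 times, as did 48.4% of all genes.

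Setting the late times (8, 12 and 24 h) against the early times (1, 2 and 4 h) avoids the shared controls. Here 6 of the 8 genes were lower, where 14.2% of all genes were, and 1, Srf, was higher on its brighter probe set, where 28.9% were; its second probe set gave -0.12 and the mean of both 0.04, neither past the test. Cnn1 was the remaining gene, with a difference of -0.16 (adjusted p = 0.0633). Between 4 and 12 h, 3 of 8 fell further, Acta2, Myl9 and Tpm1, against 9.22% of all genes, and the brighter Srf probe set was called higher, as were 18.3% of all genes. Between 12 and 24 h 1 of 8, Acta2, passed as lower, where 7.3% of all genes did. Tpm1 missed narrowly over that interval, with -0.20 (adjusted p = 0.051) and no overlap between the arrays. The count at 4 h moved to between 0 and 8 and that at 8 h to between 2 and 7 under other processing, whereas the counts at 12 and 24 h stayed within 1.5 times. Leaving out single arrays moved the 8 h count to between 0 and 4, with 0 without replicate 2 at 8 h and 1 without replicate 1.

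**Figure D2:**
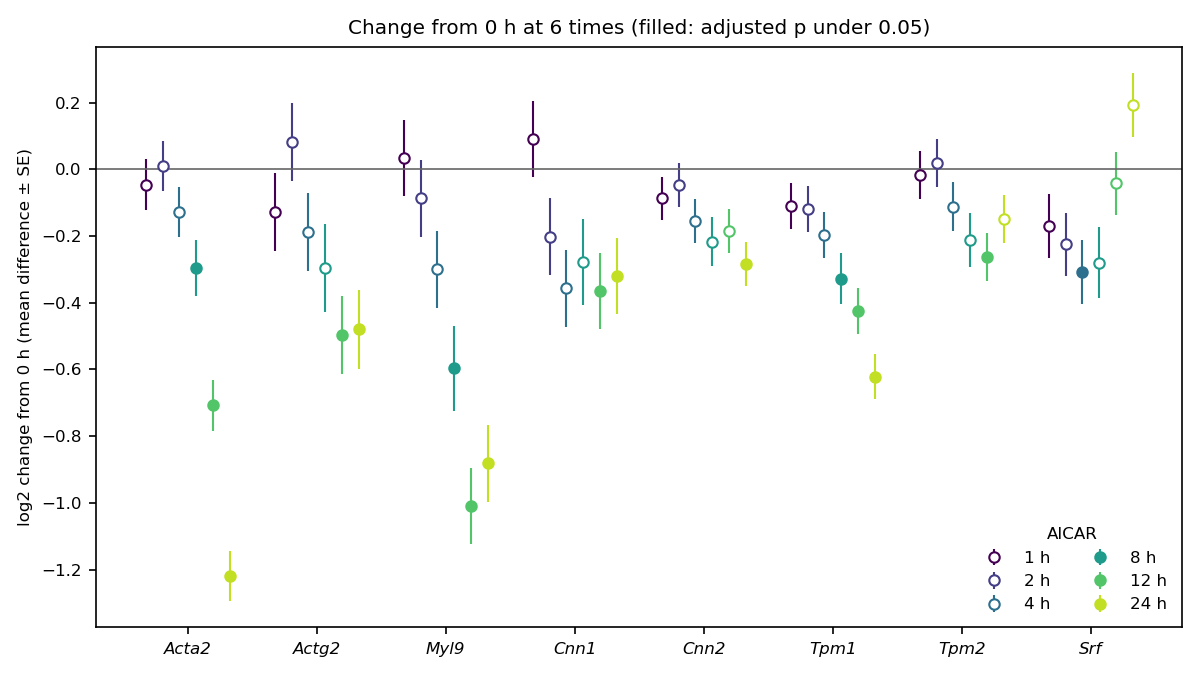
Change from 0 h in log2 signal (y axis, difference of group means ± SE from limma) for 8 genes (x axis) at 1, 2, 4, 8, 12 and 24 h in AICAR, filled where the adjusted p is under 0.05. Acta2, Myl9 and Tpm1 carry filled points below 0 at 8, 12 and 24 h, and the point of the brighter Srf probe set at 24 h lies above 0 at 0.19, unfilled.

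Acta2 encodes smooth muscle α-actin, the actin whose incorporation into stress fibres defines a myofibroblast. Its probe set 1416454_PM_s_at read 11.81, 11.82 and 11.77 on the 3 control arrays. It read 11.84, 11.81 and 11.61 at 1 h, 11.84, 11.82 and 11.77 at 2 h, and 11.70, 11.66 and 11.66 at 4 h. It read 11.50 and 11.51 at 8 h, 10.91, 11.14 and 11.22 at 12 h, and 10.61, 10.53 and 10.60 at 24 h. The 1 h and 2 h arrays overlapped the controls, and every array from 4 h on lay below them. The groups at 4, 8, 12 and 24 h did not overlap each other either, each lying below the group before it.

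The change of Acta2 was -0.30 ± 0.08 (SE, n = 2 against 3) at 8 h (adjusted p = 0.0326), -0.71 ± 0.08 (n = 3 against 3) at 12 h (adjusted p = 5.9e-06) and -1.22 ± 0.08 at 24 h (adjusted p = 1e-09). Between 4 and 12 h it fell by 0.58 (adjusted p = 2.2e-05), and between 12 and 24 h by 0.51 (adjusted p = 0.00011). The 8 h call ended under median centring and without any one of the 3 controls or either 8 h array. The second Acta2 probe set, 1456658_PM_at, had group means from 4.01 to 4.17, under the nonspecific level, and was not tested. Averaging it with the bright one gave -0.69 at 24 h, -0.41 at 12 h and -0.15 at 8 h, the last not past the test.

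Actg2 encodes smooth muscle γ-actin, the form typical of visceral smooth muscle. Its single probe set was dim, with 5.43, 5.59 and 5.15 in the controls, and the arrays at 1 to 4 h spanned 5.0 to 5.60. It read 4.98 and 5.21 at 8 h, 4.79, 5.04 and 4.84 at 12 h, and 4.77, 4.98 and 4.99 at 24 h. The 12 and 24 h arrays all lay below the controls and under the nonspecific level of 5.08, so the size of the fall may be limited by the background of the array. The change was -0.50 ± 0.12 at 12 h (adjusted p = 0.0046) and -0.48 ± 0.12 at 24 h (adjusted p = 0.0029).

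Myl9 encodes the regulatory light chain of smooth muscle and nonmuscle myosin II, whose phosphorylation switches on contraction. It read 7.80, 7.66 and 7.56 on the control arrays, 7.68, 7.78 and 7.66 at 1 h, and 7.66, 7.67 and 7.43 at 2 h. Values at 4 h were 7.55, 7.25 and 7.32, and at 8 h 7.16 and 7.0. The lowest were 6.70, 6.81 and 6.48 at 12 h and 6.91, 6.92 and 6.54 at 24 h. Arrays at 4 h and later were all below the controls, and the 12 and 24 h groups overlapped each other.

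The change of Myl9 was -0.60 ± 0.13 at 8 h (adjusted p = 0.0061), -1.01 ± 0.11 at 12 h (adjusted p = 9.8e-06) and -0.88 ± 0.11 at 24 h (adjusted p = 6e-06), folds of 1.51, 2.01 and 1.84. Between 4 and 12 h it fell by 0.71 (adjusted p = 0.00015), whereas the difference of 0.13 between 12 and 24 h did not pass (adjusted p = 0.54). Acta2 thus went on falling over an interval in which no further change of Myl9 passed the test, and that contrast between the genes was not itself tested. Without replicate 2 at 8 h, the 8 h change of Myl9 no longer passed.

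Calponins bind actin filaments and restrain myosin. Cnn1, the smooth muscle calponin, read 6.40, 6.27 and 6.25 in the controls and 6.38, 6.52 and 6.31 at 1 h. It read 6.32, 6.06 and 5.95 at 2 h, 6.13, 5.89 and 5.84 at 4 h, and 6.14 and 5.92 at 8 h. The late arrays gave 6.07, 6.07 and 5.70 at 12 h and 6.05, 6.05 and 5.88 at 24 h. From 4 h on all arrays lay below the controls, with means between 5.95 and 6.03 and no further step. The change was -0.36 ± 0.11 at 12 h (adjusted p = 0.0268) and -0.32 ± 0.11 at 24 h (adjusted p = 0.0329), while -0.36 at 4 h just missed (adjusted p = 0.051). Both calls ended under median centring, without control replicate 1 or 2, and without replicate 3 of the AICAR group, where the 12 h change was -0.24. The 12 h call also ended when only the 2 groups compared were fitted, and the 24 h call without replicate 2 at 24 h.

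Cnn2 encodes the calponin found in many nonmuscle cells. Controls read 11.15, 11.17 and 11.12, and the 24 h arrays 10.84, 10.82 and 10.92. In between, the group means from 1 to 12 h were 11.06, 11.10, 10.99, 10.93 and 10.96. Every array from 4 h on lay below the controls. Only the 24 h change of -0.28 ± 0.07 passed (adjusted p = 0.0018), and the 12 h change of -0.18 ± 0.07 missed by little (adjusted p = 0.0504).

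Tropomyosins lie along the actin filament and govern where myosin can bind. Tpm1, read by 1423721_PM_at, gave 11.77, 11.72 and 11.73 in the controls, 11.69, 11.73 and 11.47 at 1 h, and 11.61, 11.61 and 11.65 at 2 h. It gave 11.49, 11.62 and 11.52 at 4 h and 11.43 and 11.40 at 8 h. At 12 h the arrays read 11.26, 11.35 and 11.34, and at 24 h 11.12, 11.06 and 11.18. Apart from 1 h, no AICAR group overlapped the controls, and the 8, 12 and 24 h groups lay below each other in that order without overlap. The change was -0.33 ± 0.08 at 8 h (adjusted p = 0.01), -0.42 ± 0.07 at 12 h (adjusted p = 0.0002) and -0.62 ± 0.07 at 24 h (adjusted p = 9.8e-07).

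All 3 Tpm1 probe sets fell at 24 h in the fit that kept the 20460 probe sets apart. The probe set 1423049_PM_a_at went from 11.09 ± 0.17 (SD, n = 3) to 10.48 ± 0.01, a change of -0.62 (adjusted p = 0.00013). The dimmer 1456623_PM_at went from 7.22 ± 0.42 to 6.0 ± 0.09, a change of -1.22 ± 0.29 (SE) with adjusted p = 0.0024. Its controls spread from 6.91 to 7.70, so its larger change is the less precise of the 3. The 8 h call of the brightest probe set ended without either 8 h array, and its change of -0.23 between 4 and 12 h (adjusted p = 0.018) ended under median centring, without replicate 2 at 4 h and without replicate 1 at 12 h.

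Tpm2 is the β-tropomyosin gene. Its brightest probe set, 1419738_PM_a_at, read 10.72, 10.64 and 10.58 in the controls, and the arrays at 1 and 2 h spanned 10.51 to 10.70. It read 10.55, 10.53 and 10.53 at 4 h, 10.38 and 10.49 at 8 h, and 10.27, 10.43 and 10.46 at 12 h. At 24 h it read 10.60, 10.45 and 10.44, again overlapping the controls. The 12 h change of -0.26 ± 0.07 passed (adjusted p = 0.012), and the 24 h change of -0.15 ± 0.07 did not (adjusted p = 0.12). The 12 h call ended without control replicate 1, without replicate 1 at 12 h, and when only the 2 groups compared were fitted. The other 3 Tpm2 probe sets went from 10.44 to 10.22, from 9.24 to 8.99 and from 6.46 to 6.13 between 0 and 24 h, and none passed at 24 h, although the mean of the 4 did, with -0.24. At 12 h the first and second of these passed, with -0.35 and -0.38. At 8 h the first also passed, with -0.36 (adjusted p = 0.039), as did the mean of the 4, with -0.27.

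Over all probe sets of the 8 genes, 14 of 15 exceeded the filter on dim signal, and 9 of those 14 were called lower at 24 h, where 14.8% of all tested probe sets were. In the F test over the 6 times 12 of 14 passed, where 43.6% of all tested probe sets did. The exceptions were the dimmest Tpm2 probe set and 1 of the 2 for Srf.

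**Figure D3:**
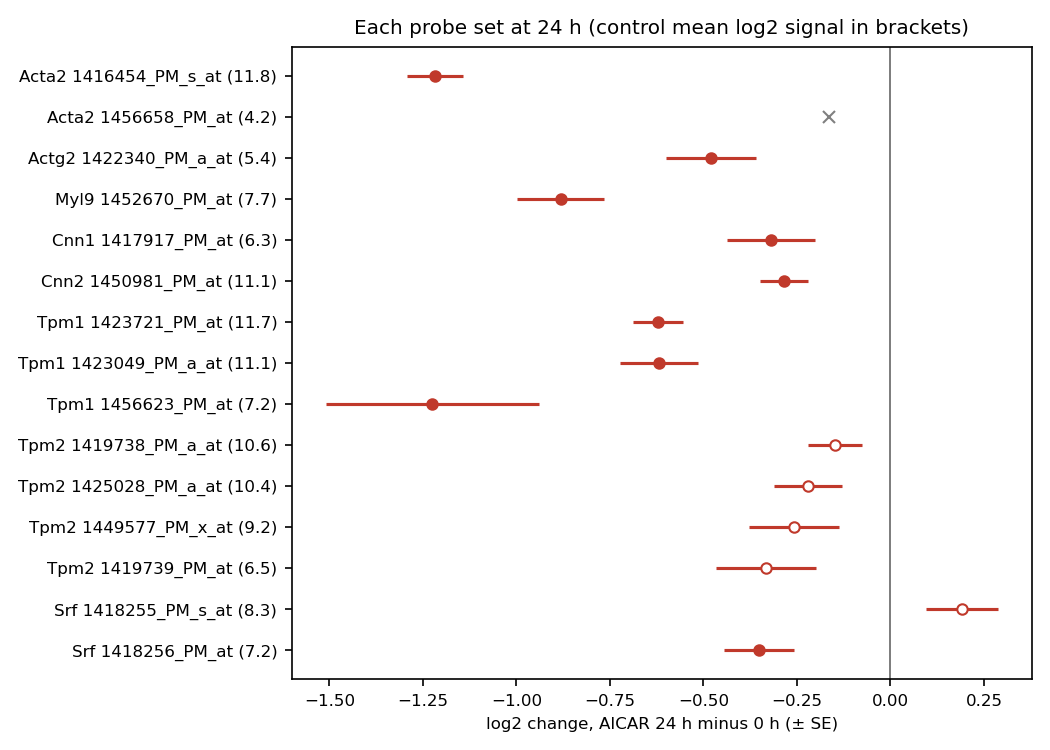
Change in log2 signal from 0 to 24 h (x axis, ± SE from limma) for each of 15 probe sets (y axis, control mean in brackets), filled where the adjusted p is under 0.05; the cross marks the dim Acta2 probe set, which was not tested. All 3 Tpm1 points are filled and lie at -0.62 or lower, and the 2 Srf points lie on opposite sides of 0.

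Srf encodes the transcription factor that binds the CArG box. Its brighter probe set, 1418255_PM_s_at, read 8.43, 8.42 and 8.17 in the controls, 8.19, 8.24 and 8.09 at 1 h, and 8.10, 8.18 and 8.06 at 2 h. It read 7.89, 8.18 and 8.03 at 4 h and 8.02 and 8.10 at 8 h. At 12 h it read 8.5, 8.27 and 8.14, and at 24 h 8.57, 8.55 and 8.48. The 24 h arrays were all above the controls, those at 8 h were all below them, and the other groups overlapped them. The change was -0.31 ± 0.10 at 4 h (adjusted p = 0.043) and 0.19 ± 0.10 at 24 h (adjusted p = 0.13), and the late times were 0.19 above the early ones (adjusted p = 0.011).

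The second Srf probe set, 1418256_PM_at, did not follow this course. It read 7.29, 7.34 and 7.12 in the controls and 6.84, 6.92 and 6.93 at 24 h, a change of -0.35 ± 0.09 (adjusted p = 0.0061) with no overlap. The late times differed from the early ones by -0.12 there (adjusted p = 0.11), and 12 h from 4 h by -0.16, so no direction for the Srf transcript over the late times holds on both probe sets. The mean of the 2 probe sets gave 0.04 for late against early, not past the test. The 4 h call was lost in 18 of 31 other settings, among them the mean of both probe sets (-0.18) and the fit without control replicate 1 or 2, and the change of 0.27 between 4 and 12 h (adjusted p = 0.046) altered its call or direction in 19 of 30.

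Promoter sequences were taken from RefSeq on the mouse build GRCm38.p6, which held an entry for 8 of the 10 genes, Tagln2 included. The window of 300 bases, from 250 before to 50 after the annotated transcription start, was searched for the CArG box, whose consensus reads the same on both strands. Whether transcription begins at the annotated start in these cells was not examined, so distances below are to the annotation only. The exact box occurred in the windows of Srf, Myl9 and Cnn2, compared with 1.63% of 32851 promoters searched. Srf held 2, as did 0.0183% of promoters, 6 in all, counting those with 2 or more. A box with 1 G or C inside its A/T core occurred 2 times for Acta2 and 1 time for Myl9, and 9.98% of promoters held a box of either kind. The 250 bases before the start are shown for these 4 genes, since they hold the motif that SRF recognises, with boxes of both kinds in capitals.
Srf, chr17:46556163-46556412, minus strand: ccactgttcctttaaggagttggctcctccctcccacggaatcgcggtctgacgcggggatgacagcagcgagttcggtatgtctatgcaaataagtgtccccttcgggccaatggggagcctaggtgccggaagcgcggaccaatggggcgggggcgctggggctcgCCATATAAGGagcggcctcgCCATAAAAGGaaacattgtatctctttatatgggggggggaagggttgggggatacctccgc
Acta2, chr19:34255374-34255623, minus strand: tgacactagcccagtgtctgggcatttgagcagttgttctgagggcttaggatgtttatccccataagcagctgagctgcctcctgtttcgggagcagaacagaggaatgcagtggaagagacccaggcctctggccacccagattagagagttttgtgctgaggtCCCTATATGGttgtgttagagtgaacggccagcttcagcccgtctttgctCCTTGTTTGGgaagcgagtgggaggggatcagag
Myl9, chr2:156775214-156775463, plus strand: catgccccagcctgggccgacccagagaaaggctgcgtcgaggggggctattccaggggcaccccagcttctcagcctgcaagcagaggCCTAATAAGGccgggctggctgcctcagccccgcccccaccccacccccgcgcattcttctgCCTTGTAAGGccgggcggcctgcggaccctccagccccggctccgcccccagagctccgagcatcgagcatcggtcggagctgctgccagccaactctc
Cnn2, chr10:79988350-79988599, plus strand: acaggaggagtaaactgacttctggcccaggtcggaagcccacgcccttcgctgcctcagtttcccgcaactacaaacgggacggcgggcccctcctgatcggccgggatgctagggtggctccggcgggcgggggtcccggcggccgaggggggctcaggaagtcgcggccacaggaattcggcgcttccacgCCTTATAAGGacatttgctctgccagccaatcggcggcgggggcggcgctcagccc

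The Srf boxes CCATATAAGG and CCATAAAAGG begin 82 and 62 bases before the start. In Acta2, CCCTATATGG and CCTTGTTTGG, each with 1 G or C in the core, begin 84 and 34 bases before it. Myl9 holds the exact box CCTAATAAGG 161 bases before the start and CCTTGTAAGG, with 1 G, 99 bases before it, and the Cnn2 box CCTTATAAGG begins 56 bases before it. Cnn1, Tpm1, Tpm2 and Tagln2 held neither kind in this window, which says only that these letters are not there.

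Paralogs were compared within each array, where the difference between 2 genes of a pair is free of a shift equal for all probe sets. An array effect that differs between bright and dim signal does not cancel, and the interquartile range of an array ran from 2.77 to 3.24. Late against early times, Tpm1 fell by 0.33 and Tpm2 by 0.17 as plain means over 8 and 9 arrays, an extra change of Tpm1 of -0.16 ± 0.07 (SE; exact two-sided permutation p = 0.023, adjusted over 3 pairs 0.035). Cnn1 and Cnn2 differed by -0.04 ± 0.10 (exact permutation p = 0.71), so this difference was smaller than its error. Late and early arrays overlapped for both pairs. These permutations and SEs treated the arrays of a side as replicates although they came from different times, so they do not account for the time groups. Acta2 changed by -0.74 and Actg2 by -0.36, but with Actg2 under the nonspecific level at 12 and 24 h this pair gives no test of whether Actg2 fell less.

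At 24 h against 0 h the extra change of Tpm1 over Tpm2 was -0.47 ± 0.07, with no overlap between the 3 and 3 arrays. The exact permutation p was 0.10, the smallest that 3 against 3 arrays can give, and 0.15 adjusted over 3 pairs. With each gene read as the mean of its probe sets the late against early difference was -0.24 for Tpm1 and Tpm2, not past the test. The fourth pair, Tagln and Tagln2, could not be computed.

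**Figure D4:**
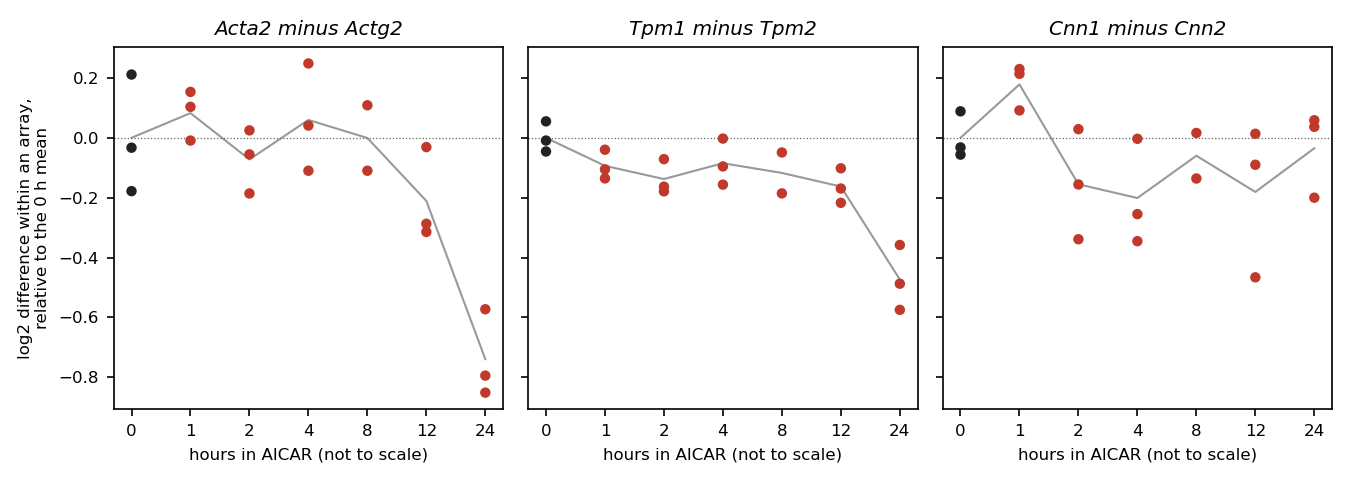
Difference in log2 signal between 2 paralogs on the same array, relative to the mean difference at 0 h (y axis), by hours in AICAR (x axis, 0 h black, AICAR red, not to scale); lines join group means. At 24 h the means are -0.74 for Acta2 minus Actg2, -0.47 for Tpm1 minus Tpm2 and -0.03 for Cnn1 minus Cnn2, the first with Actg2 under the nonspecific level.

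Related genes were read from 5 lists of pathway members, and at 24 h 25.8% of all tested genes were higher and 14.6% lower. Among 6 tested cofactors and regulators of SRF, 3 rose and 2 fell, with a median change of 0.08. Fhl2, a LIM protein and SRF partner, fell by 0.76 (adjusted p = 3.2e-06), whereas Mrtfb, a myocardin-related coactivator, rose by 0.47 (adjusted p = 0.0046), Elk4, a ternary complex factor, by 0.25 (adjusted p = 0.013) and Hopx, an SRF antagonist, by 0.41 (adjusted p = 0.021). The rises of Mrtfb and Elk4 did not pass as the mean of all their probe sets, at 0.08 and 0.06. That of Hopx was lost under quantile normalization and without control replicate 1 or 2 or replicate 1 or 3 at 24 h, and that of Elk4 without control replicate 1.

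Among other genes of the actin cytoskeleton, 24 were tested, of which 7 were lower and 2 higher at 24 h, and the median was -0.16. Zyx, a focal adhesion protein, fell by 0.60 (adjusted p = 9.5e-05), Flna, the actin crosslinker filamin A, by 0.57 (adjusted p = 1.5e-05) and Fhl1, a LIM-domain protein, by 0.39 (adjusted p = 4.3e-05). Lima1, which bundles and stabilises actin filaments, rose by 0.52 (adjusted p = 6.4e-05), but by 0.13, not past the test, as the mean of its probe sets. The cytoplasmic actins Actb and Actg1 had changes of -0.09 and -0.06, neither past the test (adjusted p = 0.55 and 0.65), beside -1.22 for Acta2.

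Of 5 other smooth muscle genes above the filter none passed in limma at 24 h, and none had an unadjusted p under 0.05. The largest t values belonged to Lmod1, with -0.08, and Mylk, the myosin light chain kinase gene, with 0.06. Both had control means under the nonspecific level, at 4.83 and 4.78. Around the myosin light chain, 3 of 7 tested genes were higher, with a median of 0.12. Ppp1r12b, a targeting subunit of myosin phosphatase, rose by 1.00 (adjusted p = 9.9e-07), the kinase gene Rock1 by 0.44 (adjusted p = 0.00028) and Rhoa, the small GTPase upstream of it, by 0.28 (adjusted p = 0.014). As means of all probe sets, Ppp1r12b rose by 0.18 and Rock1 changed by -0.016, the latter not past the test, and the Rhoa call was lost without replicate 2 or 3 at 24 h.

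Myofibroblast and TGF-β-linked genes split. Of 16 tested, 4 were higher and 5 lower at 24 h, with a median of 0.01. Ccn2, a matricellular protein induced by TGF-β and YAP, fell by 1.77 (adjusted p = 1.7e-10), and Tnc, encoding tenascin C, by 1.06 (adjusted p = 1.4e-06). Postn, encoding the matrix protein periostin, rose by 0.84 (adjusted p = 0.00024) and Itgb5, an integrin subunit, by 0.55 (adjusted p = 0.00015). At 12 h 6 of the 16 were lower, where 8.88% of all genes were, Ccn2 among them with -0.77.

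**Figure D5:**
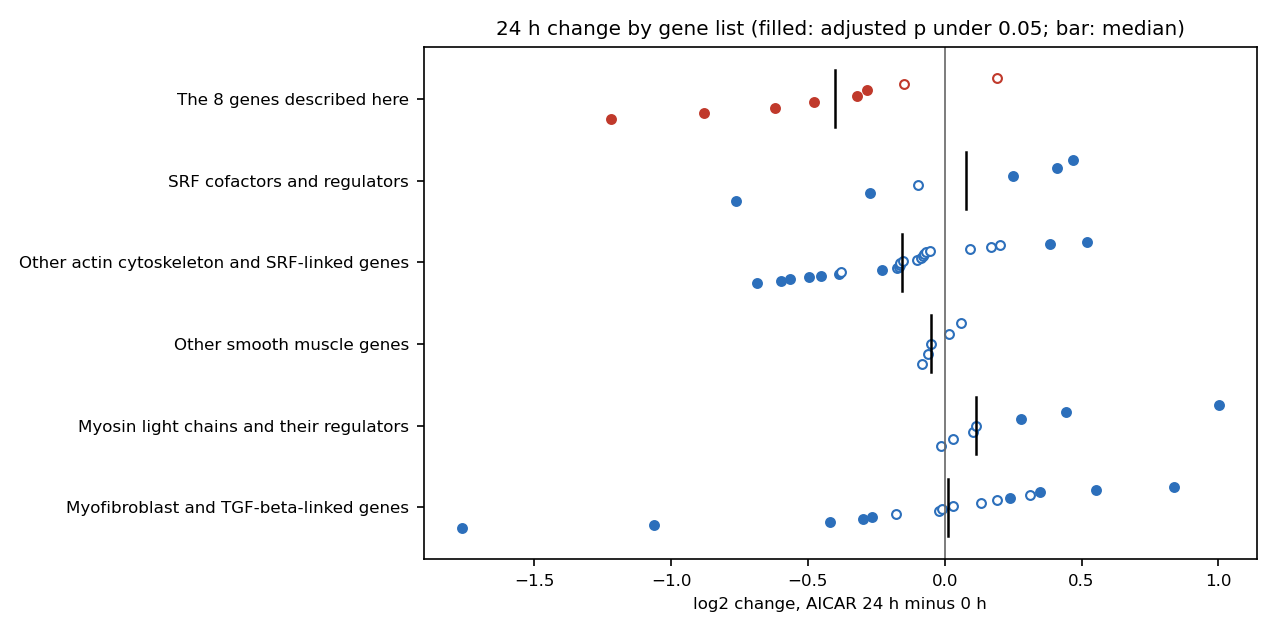
Change in log2 signal from 0 to 24 h (x axis) for single genes (points) in 6 lists (y axis), filled where the limma adjusted p is under 0.05, with the list median as a bar. The 8 genes described here have a median of -0.40, against -0.16 for the other actin cytoskeleton genes and 0.12 for the myosin light chain list.

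Markers of other cell types were read beside these changes, again with 25.8% of all tested genes higher and 14.6% lower at 24 h. Among 3 pericyte genes, Mcam alone exceeded the filter and rose by 0.42 at 24 h (adjusted p = 0.0033), and Rgs5 and Kcnj8 read 4.54 and 4.66 in the controls. The log2 of the summed signal of these 3 was 7.98 to 8.17 in the controls and 8.33 to 8.45 at 24 h. With Rgs5 and Kcnj8 under the nonspecific level, this sum mostly repeats the signal of Mcam and does not describe the set. Of 10 tested fibroblast genes, Col6a1 rose and Fn1, Pdgfrb and Thy1 fell at 24 h. Thy1 fell from a control mean of 4.94 that was already under the nonspecific level. The summed signal of the 11 genes went from between 14.25 and 14.26 to between 14.18 and 14.20, without overlap. Signals were summed before the log was taken, so bright genes such as Vim and S100a4 weigh most in this sum. The differentiated smooth muscle genes had a summed signal of 6.89 to 6.98 in the controls and 6.76 to 7.12 at 24 h, with overlap. Whether the makeup of the cultures shifted with time was not tested.

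Across the 20 arrays, the patterns of the contractile genes resembled each other to differing degrees. Pearson's r with Acta2 was 0.95 for Tpm1, 0.83 for Myl9, 0.79 for Cnn2, 0.77 for Actg2, 0.63 for Tpm2, 0.45 for Cnn1 and -0.66 for Srf, each gene read on its brightest probe set. The second Srf probe set, which fell from 7.25 to 6.90 by 24 h, is not part of this description. These arrays share groups and time, so the values describe likeness only. Over all 12944 genes the patterns most like Acta2 were those of Ctps (r = 0.990), Dkc1 (0.988), Nop56 (0.979), Nifk (0.975) and Wdr77 (0.972), and the most opposed were Cyp4v3 (-0.983), Tmem71 (-0.975) and Vsig10 (-0.967). For Srf they were Lemd2 (0.908), Nupr1 (0.901), Plod1 (0.895), Micall1 (0.889) and Pigq (0.889), and at the other end Ubfd1 (-0.861), Tti2 (-0.834) and Dusp11 (-0.814).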

How the data were processed

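The deposited values are 1 table of 45141 probe sets by 20 arrays, and they were taken as log2 signal because their highest value, 13.5, is above what a natural log of 16-bit intensities can reach. The background correction and normalization used by the authors, not given in the sources used here, stay unknown. The members and gene lists were chosen with earlier results of these data known. The probe set of highest mean stood for each gene, and a gene was tested where its highest group mean exceeded 4.81, the 40th percentile of the table, as for 12944 of 17097. One limma 3.58.1 fit (R 4.3.3; lmFit, eBayes, 13 residual degrees of freedom) over the 7 groups gave two-sided tests, adjusted by Benjamini-Hochberg over all genes, threshold 0.05. It was also run on simulated data with independent noise for each gene and array, which cannot show how it behaves where deviations are shared between arrays. A second fit kept 20460 probe sets apart. Paralog differences were tested by exact permutation of arrays (scipy 1.17.1). Named genes were the members and, per list, up to 4 past the test at 24 h by largest t, else the 2 of largest t, plus the 5 highest and 3 lowest correlations with Acta2 and Srf; the actins Actb and Actg1, markers and array controls were named after their values were seen. Alternatives covered normalization, filters, probe set choice, variance model, array weights, replicate block, and each array left out. Nothing stands in for depth on arrays except the nonspecific level, and the number of arrays limits precision.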

Additional observations from a re-analysis of the deposited data

Results flagged for a closer look

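Some changes between 2 times in AICAR themselves passed the test (limma, Benjamini-Hochberg over all genes), so signal in AICAR differed between those times; hours in AICAR and in culture change together. Between 4 and 12 h the differences were -0.58 for Acta2, -0.71 for Myl9, -0.23 for Tpm1 and 0.27 for the brighter Srf probe set. Between 12 and 24 h it was -0.51 for Acta2. The first 2 and the last kept their call in every setting that tested them, whereas those of Tpm1 and Srf did not. No group had the 4 arrays needed to look for a single deviating array.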

How the results depend on the processing

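Of 72 results for a gene in a comparison, 40 kept their call, or the lack of one, in every setting run. Direction was compared only where a call was made, and among the 40 some uncalled changes switched sign. That of Cnn1 between 4 and 12 h, for example, ran from -0.16 to 0.17. The count at 2 h was 1 with array weights, whose estimate stopped before convergence. The count at 4 h was 4 with quantile normalization, 0 with no filter, 2 with a filter at the 60th percentile, 0 with the mean of all probe sets, 0 without _x_ and _s_ probe sets, 2 with trended and robust variance, 8 with array weights, 3 with the interquartile range as covariate (added after seeing the data) and 0 with only the groups compared. At 8 h it was 5 with quantile normalization, 7 with array weights and 6 with the covariate. From 12 to 24 h it was 2 with quantile normalization, the stricter filter, trended variance, array weights or the covariate, and 0 without _x_ and _s_ probe sets, which leaves Acta2 untested; from 4 to 12 h it was 2 without them. Deviations from the group means correlated more between arrays of the same replicate number (median r 0.32, from -0.46 to 0.79) than of different numbers (median -0.17, from -0.69 to 0.66). Deviations cancel within a group, so a positive correlation for the same number brings a negative one for different numbers. These medians are therefore not separate results. What arrays of the same number share is not given in the labels, and the main fit did not use the numbers. With the replicate numbers as a block the counts were 3 at 4 h, 7 at 8 h and 3 from 12 to 24 h, and the other counts stayed within 1.5 times. With the mean of all probe sets, the Tpm1 and Tpm2 difference was -0.24, that of Acta2 and Actg2, limited by the dim Actg2, -0.032, and Rock1 reversed to -0.016. Without _x_ and _s_ probe sets Srf reversed to -0.35 at 24 h, -0.12 for late against early and -0.16 from 4 to 12 h. Leaving out single arrays gave counts of 0 to 2 at 4 h, 0 to 4 at 8 h, 4 to 7 at 12 h, 5 to 6 at 24 h, 1 to 2 from 12 to 24 h and 2 to 5 from 4 to 12 h (2 without replicate 1 at 12 h). It gave 7 to 8 for late against early and for the F test, 8 to 10 probe sets at 24 h and 10 to 12 in their F test, -0.19 to -0.12 for the Tpm1 and Tpm2 difference and -0.45 to -0.31 for that of Acta2 and Actg2. Except where the setting itself removes genes or arrays, the cause was not tested. Signals near 5.08, as for Actg2, can limit what is measured.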

Other observations

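Genes of skeletal and cardiac muscle did not move as a group. Of 9 tested, Tnnt1, slow skeletal troponin T, rose by 0.74 at 24 h (limma adjusted p = 6e-05), and Acta1, skeletal α-actin, fell by 0.45 (adjusted p = 0.00093). For comparison with the calls given here, 25.8% of all tested genes were higher and 14.6% lower at 24 h. The log2 of the summed signal of the 10 listed genes was 9.05 to 9.13 in the controls and 9.10 to 9.14 at 24 h. Among 5 macrophage genes, Cd68, a lysosomal glycoprotein, was higher at 24 h (adjusted p = 1.3e-06), with a mean of 5.85 against a control mean of 4.77. That control mean lies under the nonspecific level, so the size of the rise is uncertain. Ptprc and Lyz2 read 4.05 and 3.86 in the controls. Of 3 tested epithelial genes, Krt19 fell by 0.28 (adjusted p = 0.0025), and of 3 tested endothelial genes, Kdr fell by 0.27 (adjusted p = 0.047). The summed epithelial signal was 10.03 to 10.10 in the controls, 10.32 to 10.36 at 12 h and 9.80 to 9.91 at 24 h. The macrophage sum was 7.10 to 7.19 in the controls and 7.26 to 7.52 at 24 h, without overlap. The endothelial sum was 7.10 to 7.32 and 7.01 to 7.14, with overlap. The genes named here were picked after their values were seen.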
